A study of Mus musculus with 6 samples.

Results

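Among CD8 T cells sorted from B16-OVA melanomas, 345 cells held no transcript of *Tox*, *Entpd1*, *Pdcd1* or *Tcf7*. These 4-gene-negative cells comprised 181 of 6298 control cells and 164 of 7971 CD8-IFNγRKO cells that had at least 2000 UMIs (unique molecular identifiers, each marking 1 captured transcript). They were chosen by their UMIs of the 4 genes among tumor cells that expressed *Cd2*, *Cd8a* and *Cd8b1* (1 UMI or more of each gene), with 200 to 6000 detected genes and mitochondrial UMIs of at most 3%. Such cells numbered 7106 in control and 8638 in CD8-IFNγRKO tumors. The remaining 6117 and 7807 cells with at least 2000 UMIs are called the other tumor cells. Because measured values of the 4 genes chose the cells, the expression differences from the other tumor cells are descriptions. The T cell receptor (TCR) sequences and the comparison between genotypes were not used in the choice.

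*Tox* encodes a transcription factor that establishes exhaustion under chronic antigen, *Entpd1* encodes the ectonucleotidase CD39, and *Pdcd1* encodes the inhibitory receptor PD-1. *Tcf7* encodes TCF-1, which naive, memory and stem-like T cells need. Tumors also hold bystander T cells, whose receptors recognize antigens that the tumor does not express, and these are known for low CD39 and little exhaustion.

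Tumors were harvested 12 days after engraftment, as the labels give it, and CD45+CD3+CD8+Tomato+ cells were sorted. Control mice carried CD8-Cre and Rosa26Tomato, and CD8-IFNγRKO mice carried the same alleles with *Ifngr1* flox/flox, so that Cre and Tomato were present in both groups. Each genotype was 1 library of 3 pooled mice per tissue, so no test between genotypes was possible, and no tag tied a cell to a mouse. All intervals below are 95% intervals for counting error only, which does not cover the spread between mice. The 4-gene-negative cells held 668040 UMIs in the control and 621293 UMIs in the CD8-IFNγRKO library.

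*Ifngr1*, the deleted receptor subunit, was at 1031 UMIs per 1000000 UMIs (CPM; interval 956 to 1111) in control and 386 CPM (339 to 438) in CD8-IFNγRKO 4-gene-negative cells. The 5′ assay counts the start of a transcript, which need not lie in the deleted part, so this level does not measure the deletion itself. In the other tumor cells at the same depth, *Ifngr1* was at 1009 and 375 CPM, so the 4-gene-negative cells stood on the same side of the genotype difference. *Ifngr2*, the signaling subunit, had 3 UMIs in each library.

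The label under which such cells are looked for, bystander or memory cells, was checked with *Klrg1*, *S1pr5* and *Cx3cr1*, receptors of effector memory cells that circulate. *Klrg1* had 10 UMIs in control and 9 in CD8-IFNγRKO 4-gene-negative cells, *S1pr5* had 3 and 4, and *Cx3cr1* had 29 and 19. The 3 genes summed to 62.9 CPM in control, against 62.9 CPM in the other tumor cells at matched depth, and to 51.5 against 56.9 CPM in CD8-IFNγRKO. Summed over all 4-gene-negative cells the markers were thus about as sparse as in the rest of the tumor, mostly through *Cx3cr1*, although a small class of them differed (described with the receptors). The cells are therefore called by the rule and not by a cell type.

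A 0 for 4 genes is easier to reach in a shallow cell, and the share of 4-gene-negative cells followed depth closely. They made up 2.87% (interval 2.48 to 3.32) of control and 2.06% (1.76 to 2.39) of CD8-IFNγRKO cells. Among cells with 2000 to under 2500 UMIs the shares were 16.9% and 13.2%, while above 5000 UMIs only 21 control and 30 CD8-IFNγRKO cells remained, 0.470% and 0.468%. The median depth was 3499 and 3078 UMIs, against 7189 and 10275 UMIs in the other tumor cells. When every cell was thinned to 2000 UMIs, 15.0% of control and 20.6% of CD8-IFNγRKO cells had 0 UMIs of the 4 genes, so the order of the genotypes turned with the depth at which it was read. Levels and shares called matched below therefore weight the other tumor cells over 10 bands of UMIs per cell. Each band carries the same part as among the 4-gene-negative cells, of the UMIs for levels and of the cells for clone shares and thinned cells. Other comparisons carry no such weights.

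**Figure D1:**
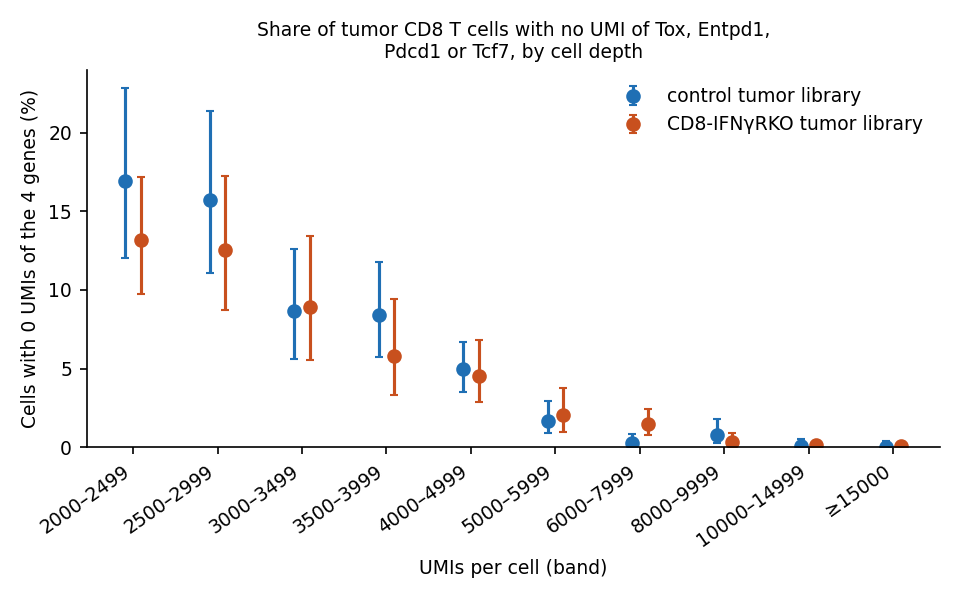
Share of tumor CD8 T cells with 0 UMIs of *Tox*, *Entpd1*, *Pdcd1* and *Tcf7* (percent, y axis) in bands of UMIs per cell (x axis), for the control and CD8-IFNγRKO tumor libraries, with exact 95% binomial intervals. In control the share goes from 16.9% in the shallowest band to 0 of 989 cells at 15000 UMIs or more, and in CD8-IFNγRKO from 13.2% to 1 of 2179.

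The rule has a hard edge, and 296 control and 379 CD8-IFNγRKO cells lay 1 UMI outside it. At matched depth the other tumor cells expressed *Tox* at 131 and 146 CPM, *Entpd1* at 109 and 107 CPM, *Pdcd1* at 900 and 638 CPM and *Tcf7* at 68.4 and 139 CPM, in control and CD8-IFNγRKO respectively. *Pdcd1* was the strictest of the 4 criteria apart from depth, being at 0 UMIs in 7.65% of control and 9.75% of CD8-IFNγRKO cells, whereas *Tcf7* was at 0 in 94.4% and 90.3%. Below the minimum depth, 31 of 140 control and 83 of 460 CD8-IFNγRKO cells with 1500 to under 2000 UMIs also had 0 UMIs of the 4 genes, against 34 and 45 cells just above it.

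Libraries shared 175 to 249 barcodes between tumor and LN and 169 between the tumors. Of the 4-gene-negative cells, 1 control and 3 CD8-IFNγRKO barcodes recurred in the other tumor library, and 11 and 4 in an LN library. At 2000 UMIs the 4-gene-negative cells had a median of 1018 and 1030 genes, against 1034 and 1058 in matched cells, and their median mitochondrial share was 0.666% and 0.750% of UMIs against 0.631% and 0.726% in the other tumor cells.

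Few genes differed by 2-fold between the 4-gene-negative cells and the other tumor cells. Of 2774 genes compared, 1 was at least 2-fold higher in both libraries (0.036%) and 4 were at least 2-fold lower (0.144%), which is a description of the contrast that the rule made. In control alone 8 were higher (0.288%) and 11 lower (0.397%), and in CD8-IFNγRKO alone 3 were higher (0.108%) and 16 lower (0.577%). The gene on the higher side was *S1pr1*, the sphingosine-1-phosphate receptor by which T cells leave tissue. *S1pr1* was at 59.9 CPM against 26.6 CPM matched in control (log2 ratio 1.14, interval 0.62 to 1.69) and at 75.6 against 35.9 CPM in CD8-IFNγRKO (1.05, 0.59 to 1.53). Without the 2 cells with most *S1pr1* UMIs in each library the ratios were 0.92 and 0.84, so that it was no longer 2-fold higher. A gene needed 50 CPM in either group to be compared, which *S1pr1* reached only in the 4-gene-negative cells. On the lower side were *Gzmc*, a granzyme, *Spp1*, which encodes osteopontin, *Nabp1*, a single-stranded DNA binding protein, and the gene model *1700017B05Rik*, which was named after its values were seen because it completes the 4. *Gzmc* was at 24.0 against 56.6 CPM in control and 70.8 against 265 CPM in CD8-IFNγRKO. *Spp1* was at 52.4 against 191 CPM in control and 33.8 against 70.7 CPM in CD8-IFNγRKO.

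Genes of naive and central memory cells had ratios above 0 in the 4-gene-negative cells, mostly by less than 2-fold. All 8 of the 15 listed genes that could be compared had a ratio above 0 in both libraries, with a median log2 ratio of 0.56 in control and 0.58 in CD8-IFNγRKO, where the median over all genes was -0.02 and -0.04 and 25.4% of all genes were above 0 in both. A compared gene needed 50 CPM in either group of each library, so a sparse gene could enter through the 4-gene-negative cells alone, as *S1pr1* did. The count of 8 and the medians thus partly follow from this filter. *S1pr1* was the 1 gene of the 8 that was 2-fold higher in both libraries. *Il7r*, the interleukin-7 receptor needed for T cell survival, was at 193 against 96.9 CPM in control and 175 against 117 CPM in CD8-IFNγRKO. *Klf2*, a transcription factor that drives *S1pr1*, was at 439 against 276 CPM and at 945 against 617 CPM. These levels lay between those of the other tumor cells and LN cells, which held *Klf2* at 2097 and 2293 CPM and *Il7r* at 351 and 389 CPM. The other tumor cells include those with *Tcf7*, which the rule removed from one side only. Without them the medians were 1.41 and 1.80, and 11 genes were at least 2-fold higher in both libraries, among them *Klf3* (log2 3.74 and 2.20), *S1pr1* (2.83 and 3.07), *Ccr7* (1.71 and 2.34), the homing receptor for LN, and *Il7r* (1.64 and 1.88). Leaving out cells with *Tcf7* takes naive and stem-like cells from the other side, so larger ratios of these genes follow in part from that choice. *Klf3* (3.00 and 12.9 CPM in the remaining other cells) and *S1pr1* (7.58 and 8.12 CPM) passed the filter only through the 4-gene-negative cells. This second comparison was added after seeing the data.

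Granzyme and granule genes mostly had ratios below 0. Of the 9 granzyme and granule genes compared, 8 had a ratio below 0 in both libraries, with medians of -0.40 and -0.48, where 34.8% of all genes were below 0 in both. *Gzmc* was the 1 gene of the 9 that was 2-fold lower in both libraries. *Prf1*, the pore-forming protein perforin, was at 442 against 879 CPM in control (log2 ratio -0.99, interval -1.17 to -0.83) and at 312 against 682 CPM in CD8-IFNγRKO (-1.12, -1.34 to -0.92). *Gzmb*, granzyme B, was at 1971 against 2595 CPM in control and 1972 against 3459 CPM in CD8-IFNγRKO. *Gzma*, granzyme A, did not follow them, at 451 against 82.4 CPM in control (2.44, 2.23 to 2.67) and 312 against 219 CPM in CD8-IFNγRKO (0.51, 0.29 to 0.72). Its UMIs sat in few cells, 24 of 181 in control and 31 of 164 in CD8-IFNγRKO. In control 5 cells held 221 of its 301 UMIs and in CD8-IFNγRKO 3 cells held 106 of 194, so both ratios rest largely on these cells.

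Exhaustion genes other than the 3 of the rule also mostly had ratios below 0, yet they were far from absent. Of 12 compared, 11 had a ratio below 0 in both libraries, with medians of -0.44 in control and -0.60 in CD8-IFNγRKO, and 0 were 2-fold lower in both. *Lag3*, an inhibitory receptor for MHC class II, was at 608 against 958 CPM in control and 299 against 546 CPM in CD8-IFNγRKO. *Havcr2*, encoding TIM-3, was at 189 against 274 CPM and 93.4 against 173 CPM. *Tigit* was at 413 against 566 CPM and 216 against 389 CPM, and *Ctla4* at 518 against 695 CPM and 341 against 487 CPM. The exception was *Cd160*, an inhibitory and costimulatory receptor, at 49.4 against 84.1 CPM in control but 134 against 75.9 CPM in CD8-IFNγRKO.

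**Figure D2:**
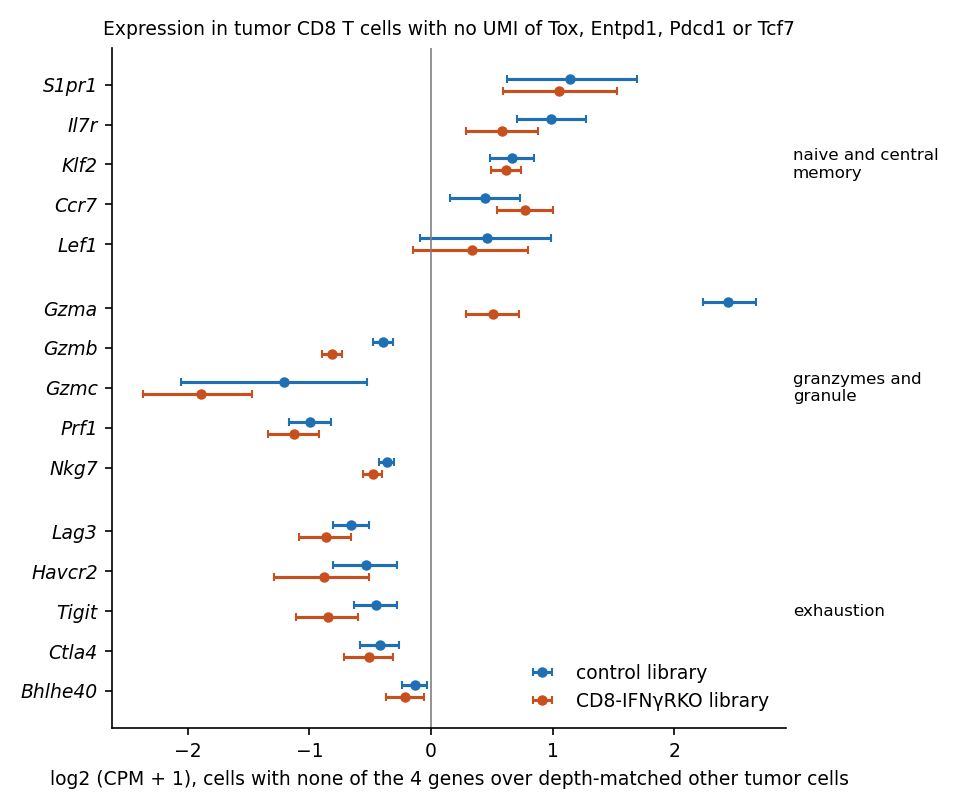
Log2 ratio of CPM (1 CPM added) in cells without UMIs of the 4 genes over depth-matched other tumor cells (x axis) for 15 genes (y axis) in the control and CD8-IFNγRKO libraries, with 95% counting intervals. *S1pr1*, *Il7r*, *Klf2* and *Ccr7* lie to the right of 0 in both libraries, *Prf1*, *Gzmb*, *Lag3*, *Havcr2*, *Tigit* and *Ctla4* lie to the left, and *Gzma* in control lies at 2.44.

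Levels of *Prf1* and *Il7r* were graded over the edge of the rule. The other tumor cells with 1, 2 and 3 UMIs of the 4 genes were set beside the 4-gene-negative cells at matched depth. *Prf1* was at 442, 566, 745 and 796 CPM in control cells with 0, 1, 2 and 3 UMIs, and at 312, 520, 615 and 708 CPM in CD8-IFNγRKO cells. *Il7r* was at 193, 138, 110 and 98.0 CPM in control and at 175, 146, 131 and 123 CPM in CD8-IFNγRKO. *Klf2* was at 439, 432, 328 and 242 CPM in control, where cells with 0 and 1 UMI were nearly level. Cells that missed the rule by 1 UMI thus lay between the 4-gene-negative cells and those with 3 UMIs for these 3 genes, except that *Klf2* in CD8-IFNγRKO (945, 760, 766 and 551 CPM) was level between 1 and 2 UMIs. Not every gene was graded. *S1pr1* was at 59.9, 58.1, 37.5 and 15.0 CPM in control, but at 75.6, 40.8, 55.6 and 28.6 CPM in CD8-IFNγRKO.

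**Figure D3:**
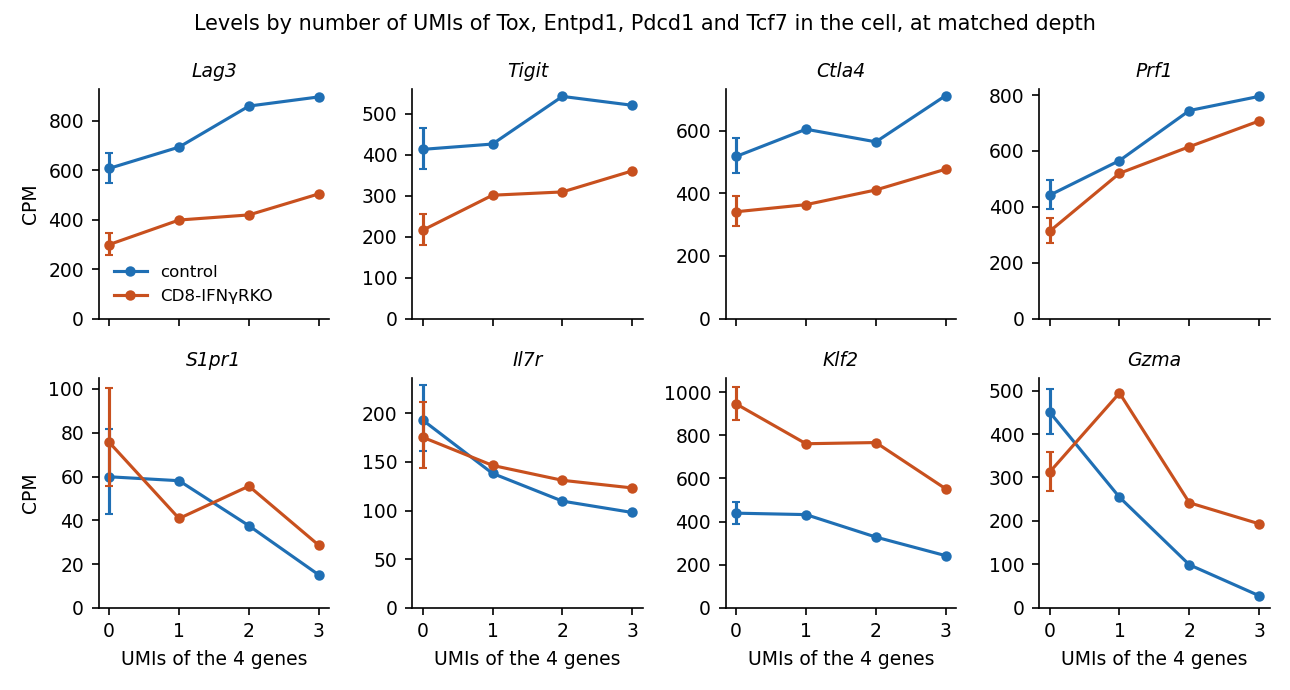
CPM (y axes, from 0) of 8 genes in tumor CD8 T cells by their number of UMIs of the 4 genes (x axes, 0 to 3) at matched depth, in control and CD8-IFNγRKO, with exact 95% Poisson intervals at 0. *Lag3* and *Prf1* are lowest at 0 and *Il7r* is highest at 0 in both libraries, while *Gzma* in CD8-IFNγRKO is highest at 1.

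The 4-gene-negative cells were not alike. After thinning to 2000 UMIs, 145 of 181 control cells (80.1%, interval 73.5 to 85.7) and 104 of 164 CD8-IFNγRKO cells (63.4%, 55.5 to 70.8) held a UMI of *Lag3*, *Havcr2*, *Tigit* or *Ctla4*, against 92.3% and 81.8% of matched cells. Without thinning, 87.8% and 75% did. In LN cells, which should express little of these genes, the share was 7.70% and 6.99% at a median depth of 4129 and 3886 UMIs. The LN libraries hold little RNA of these genes, so they do not measure free RNA in the tumor libraries, whose part was not tested. The split by these 4 receptors was chosen after the values were seen, and it left 36 control and 60 CD8-IFNγRKO cells without any, called receptor-negative.

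*Klf2*, *Il7r*, *Ccr7* and *S1pr1* were at higher levels in the receptor-negative cells, while the effector memory list was lower (16341 against 17130 CPM in control and 8319 against 13279 CPM in CD8-IFNγRKO). *Ly6c2*, the most abundant gene of the naive and central memory list, was at 3232 against 3828 CPM in control but 3958 against 2737 CPM in CD8-IFNγRKO. *Klf2* was at 970 CPM (interval 800 to 1165) in receptor-negative and 325 CPM (279 to 376) in receptor-positive control cells, and at 1454 (1311 to 1608) and 577 CPM (501 to 661) in CD8-IFNγRKO. *Ccr7* was at 468 against 113 CPM in control and 495 against 150 CPM in CD8-IFNγRKO. *Prf1* went the other way, at 76.6 against 520 CPM in control and 104 against 463 CPM in CD8-IFNγRKO. The exhaustion list without the 4 receptors summed to 1344 against 3255 CPM in control and 1001 against 2599 CPM in CD8-IFNγRKO, and the glycolysis list to 9765 against 16836 CPM and 9428 against 15766 CPM. Apart from *Ly6c2*, these measures differed in the same direction in both genotypes. The counting intervals overlapped for the effector memory list in control. They also overlapped for *S1pr1* in CD8-IFNγRKO, at 104 CPM (68.2 to 151) against 55.5 CPM (33.9 to 85.7).

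For *Klf2* and *Il7r* these levels were near those of the other tumor cells that lacked the same receptors. In matched receptor-negative other tumor cells *Klf2* was at 966 CPM in control and 1335 CPM in CD8-IFNγRKO, and *Il7r* was at 376 and 298 CPM, beside 468 and 261 CPM in the receptor-negative 4-gene-negative cells. *Prf1* was lower than in those cells, which had 193 CPM in control and 301 CPM in CD8-IFNγRKO against 76.6 CPM (9 UMIs) and 104 CPM (27 UMIs), and *Ccr7* was at 468 against 710 CPM in control and 495 against 455 CPM in CD8-IFNγRKO. The effector memory list was at 16341 against 9193 CPM in control and 8319 against 7096 CPM in CD8-IFNγRKO, and *Ccl5*, a chemokine of effector cells, at 9800 against 5332 CPM and 4484 against 3102 CPM. *Gzma* in control was higher, at 2127 CPM (interval 1871 to 2407) in the 36 receptor-negative cells against 138 CPM in matched receptor-negative cells. Most of it came from 5 cells with 25 or more UMIs of *Gzma*, which held 221 of all 301 *Gzma* UMIs. The same 5 cells held all 3 UMIs of *S1pr5* and 4 of the 10 UMIs of *Klrg1*. In CD8-IFNγRKO, 3 such cells held 106 of 194 UMIs of *Gzma*, 3 of 4 of *S1pr5* and 4 of 9 of *Klrg1*. So *S1pr5* and part of *Klrg1*, undetected in most 4-gene-negative cells, lay together with *Gzma* in a handful of them. In all, *Klrg1*, *S1pr5* and *Cx3cr1* summed to 85.1 CPM (interval 40.8 to 156) in the receptor-negative control cells against 21.4 CPM in matched receptor-negative cells, and to 76.7 CPM (46.9 to 118) against 24.1 CPM in CD8-IFNγRKO, from 10 and 20 UMIs. *Klrg1* alone was at 42.5 against 1.06 CPM and at 30.7 against 4.11 CPM, from 5 and 8 UMIs, of which 2 cells held 3 and 7. *Cx3cr1* went the other way in control, at 17.0 against 20.3 CPM, and was at 30.7 against 19.2 CPM in CD8-IFNγRKO, from 2 and 8 UMIs. The limit of 25 UMIs was set after the values were seen.

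The TCR gave a readout that the rule had not used. Both chains were read in 127 of 181 control (70.2%) and 94 of 164 CD8-IFNγRKO cells (57.3%), close to the 68.8% and 57.3% of matched cells. A clone was taken as all cells of a library whose alpha and beta chains with most UMIs matched in V gene, J gene and CDR3 nucleotides. The clone was also found in cells outside the 4-gene-negative set for 97 of 127 control cells (76.4%, interval 68.0 to 83.5) and 52 of 94 CD8-IFNγRKO cells (55.3%, 44.7 to 65.6). In matched other tumor cells, a clone had another cell in 91.3% (89.6 to 92.8) and 81.0% (78.6 to 83.2). With any other cell counted, as in these, the 4-gene-negative cells had 78.0% (69.7 to 84.8) and 55.3%. Their share was thus lower in both libraries, which was not tested. The intervals treat cells of 1 clone as independent. The 127 control cells formed 57 clones with up to 18 in 1, and the 94 CD8-IFNγRKO cells formed 62 with up to 9. The 10 largest clones held 35.4% (27.2 to 44.4) and 35.1% (25.5 to 45.6) of the 4-gene-negative cells, against 64.7% and 56.3% of matched cells, with clones ranked by their cells outside the 4-gene-negative set. Counted by beta chain alone and ranked by all cells, a definition added after seeing the data, the shares were 55.9% (46.8 to 64.7) and 43.6% (33.4 to 54.2), against 66.0% (63.3 to 68.7) and 66.8% (64.0 to 69.5). In control the intervals then overlapped, since 1 clone with many 4-gene-negative cells entered the 10. The share of cells whose clone was found outside the set moved with *Tcf7* being in the rule. Without that criterion it was 51.6% (116 of 225) in control and 19.7% (67 of 340) in CD8-IFNγRKO.

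Clonality split along the receptors. Of receptor-positive 4-gene-negative cells, 89 of 104 in control (85.6%, interval 77.3 to 91.7) and 42 of 53 in CD8-IFNγRKO (79.2%, 65.9 to 89.2) belonged to a clone held by other cells. Of receptor-negative ones, 8 of 23 (34.8%, 16.4 to 57.3) and 10 of 41 (24.4%, 12.4 to 40.3) did. Matched receptor-negative other tumor cells had 32.2% and 24.8%, and matched receptor-positive ones 95.6% and 94.3%. Single-cell clones made up 14 of the 23 and 31 of the 41 receptor-negative cells.

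**Figure D4:**
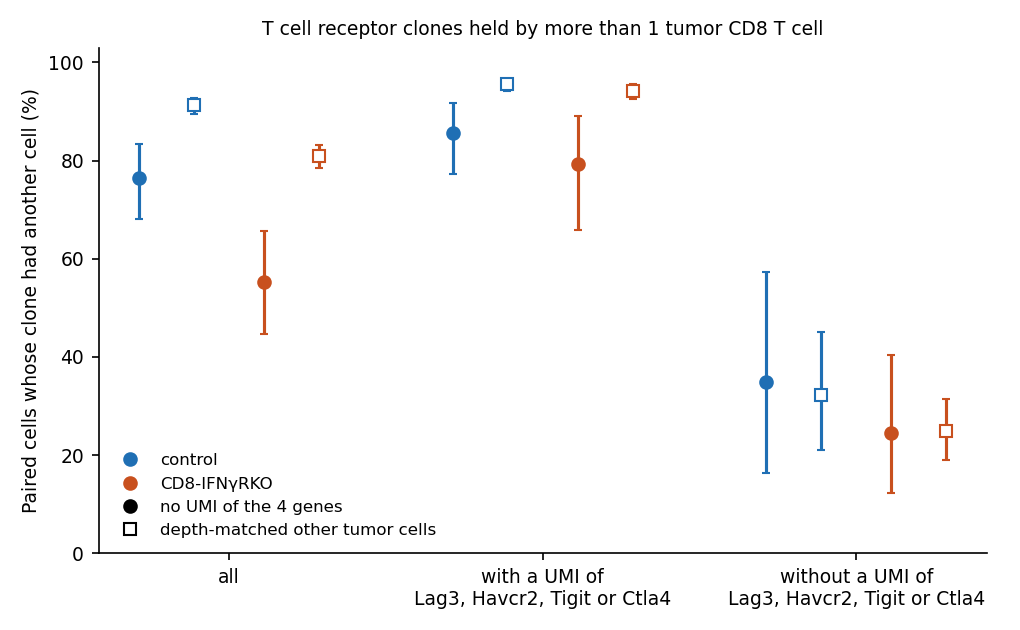
Share of cells with both TCR chains whose clone had another tumor cell (percent, y axis; for cells without UMIs of the 4 genes, a cell outside that set), for all cells and for those with or without a UMI of *Lag3*, *Havcr2*, *Tigit* or *Ctla4* (x axis), with 95% binomial intervals that use the effective number of cells where weighted. Cells without UMIs of the 4 genes (filled circles) lie below matched other cells (open squares) when all are counted, and both lie below 36% where the 4 receptors are missing.

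No clone of a 4-gene-negative cell was found in both tumor libraries (0 clones). The libraries came from different mice, and the paper reports that clones of its tumor T cells did not overlap between mice, so this does not set these cells apart. One control clone held many of them, and its CDR3 nucleotide sequences, read from the deposited contigs and printed 5′ to 3′, are shown because 2 alpha chains went with 1 beta chain. Capitals mark the bases left when the first and last 12 are set aside, and the junction can begin before them, as the alpha chains of the lead clone show by differing within their first 12 bases. The beta chain used TRBV16 and TRBJ2-1, and the alpha chains used TRAV13N-1 with TRAJ4 (alpha a) or TRAJ7 (alpha b).
control lead clone beta: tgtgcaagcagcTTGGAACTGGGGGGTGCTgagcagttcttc
control lead clone alpha a: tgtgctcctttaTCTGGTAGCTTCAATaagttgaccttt
control lead clone alpha b: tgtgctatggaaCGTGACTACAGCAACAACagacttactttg
For comparison, the largest control clone used TRAV12-3 and TRAJ42 with TRBV12-1 and TRBJ2-4.
control largest clone alpha: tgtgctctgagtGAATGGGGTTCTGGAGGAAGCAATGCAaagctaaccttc
control largest clone beta: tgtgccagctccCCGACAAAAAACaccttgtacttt
In CD8-IFNγRKO the clone with the highest unweighted share used TRAV4-4-DV10 and TRAJ49 with TRBV29 and TRBJ2-7.
CD8-IFNγRKO lead clone alpha: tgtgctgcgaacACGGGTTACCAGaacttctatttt
CD8-IFNγRKO lead clone beta: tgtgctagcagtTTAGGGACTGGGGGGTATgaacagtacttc

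By the alpha chain with most UMIs, the control cells with this beta chain fell into 2 clones, with 18 of 35 and 10 of 30 cells 4-gene-negative. Both alpha chains were read in 46 of these 65 cells, so they were treated as 1 lead clone, after the sequences were seen. It held 28 4-gene-negative cells among 65 (43.1%, interval 30.8 to 56.0). By beta chain alone, 32 control chains had at least 10 cells, of which 15 were without any 4-gene-negative cell, and the second highest share was 10.3%. These shares are not weighted for depth. Among cells with at least 2000 UMIs, the control lead clone had 28 of 61 (45.9%, 33.1 to 59.2), where all control cells in the same bands of depth had 9.84%. The largest control clone, deeper at a median of 6381 UMIs against 3386, had 12 of 1091 (1.10%, 0.570 to 1.91) against 2.39%. In CD8-IFNγRKO the lead clone had 9 of 125 (7.20%, 3.35 to 13.2) against 7.47%, so it held no more such cells than its depth goes with. Of 23 beta chains there 13 had none. Since the lead clones were picked for these shares, they are descriptions.

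Depth was alike within the control lead clone, with a median of 3335 UMIs in the 28 cells and 3264 in the other 37. The other 37 cells had 1 UMI of *Tox* and 6 of *Entpd1* in all, beside 57 of *Pdcd1* and 24 of *Tcf7*. *Prf1* was sparse in it, at 4 UMIs in the 28 cells and 8 in the 37. *Gzmb* was at 1457 CPM (interval 1224 to 1723) in the 28 and 750 CPM (608 to 914) in the 37. *Lmna*, encoding lamin A/C, was at 660 CPM (506 to 846) and 240 CPM (163 to 340), and the 28 cells held 62 of the 124 *Lmna* UMIs of all control 4-gene-negative cells. Without this clone, 69.7% (59.6 to 78.5) of the paired control cells shared a clone with other cells, still below the matched 91.3%. Without the CD8-IFNγRKO lead clone the share was 50.6% (39.5 to 61.6).

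Between genotypes, 1817 genes could be compared within the 4-gene-negative cells. In CD8-IFNγRKO, 31 were at least 2-fold higher (1.71%) and 20 at least 2-fold lower (1.1%), each a difference between 2 libraries. Of the lists, 2 of 6 cytokine and chemokine genes, 3 of 12 heat shock and immediate early genes and 1 of 5 proliferation genes were 2-fold higher. *Xcl1*, which attracts cross-presenting dendritic cells, was at 58.4 CPM in control and 428 CPM in CD8-IFNγRKO (log2 ratio 2.85, interval 2.39 to 3.40). *Ccl4*, the chemokine MIP-1β, was at 653 and 2044 CPM (1.65, 1.49 to 1.81), whereas matched other tumor cells differed by -0.08. For both chemokines 2 cells decided the size, with 201 of 266 *Xcl1* UMIs and 733 of 1270 *Ccl4* UMIs in CD8-IFNγRKO. Without the 2 cells with most UMIs in each library the ratios were 1.43 and 0.62, so the *Ccl4* difference was no longer 2-fold. The *Xcl1* ratio in matched other tumor cells was 1.80.

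*Myc*, a driver of growth and metabolism, was at 50.9 CPM in control and 219 CPM in CD8-IFNγRKO, in 18 and 56 cells (log2 ratio 2.08, interval 1.55 to 2.69). In matched other tumor cells the ratio was 1.34. The linker histone genes *Hist1h1b* and *Hist1h1d*, which S-phase cells express, had ratios of 2.14 and 1.54, and *Pclaf*, a PCNA-associated factor, 1.72, beside 1.20, 1.54 and 1.77 in matched other tumor cells. With a minimum of 5000 UMIs the ratio of *Hist1h1b* was 0.35 and that of *Hist1h1d* turned to -0.55. The same minimum left *Hspa1a* at 0.31, *Hspa1b* at 0.77 and *Ifi208* at 0.71, and among the lower genes *Adam8* at -0.25 and *Lmna* at -0.09, and 3 of the 14 genes higher there were among the 31. *Hspa1a* and *Hspa1b*, which encode the inducible heat shock protein HSP70, had ratios of 1.44 and 1.73, beside 2.28 and 2.06 in matched other tumor cells. In control 2 cells held 139 of the 337 *Hspa1a* UMIs, and 2 held 159 of the 368 *Hspa1b* UMIs. Without the 2 top cells of each library the ratios were 1.81 and 2.38, so that of *Hspa1b* was then above 2.06. *Cd160* had a ratio of 1.42 (0.84 to 2.06) against -0.15 in matched other tumor cells. *Ifi208*, an interferon-inducible gene, had a ratio of 1.45, and *Hspa9*, a mitochondrial chaperone, 1.36.

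Among the lower genes, *Csf1*, a growth factor for macrophages, was at 225 CPM in control and 35.4 CPM in CD8-IFNγRKO (log2 ratio -2.63, interval -3.38 to -2.01). *Serpine2*, a protease inhibitor, was at 159 and 29.0 CPM (-2.41), and both genes had a similar ratio in matched other tumor cells, -2.19 and -2.22. *Gzmf* (-1.74), a granzyme, *Nrgn* (-1.55), neurogranin, and *Lmna* (-1.35), which 1 control clone carried in large part, were lower too, beside -1.08, -1.07 and -0.88 in matched cells. *Klrc1*, encoding the inhibitory receptor NKG2A, was at 924 and 406 CPM (-1.19, -1.40 to -0.97), beside -0.68. *Adam8* (-1.78), a surface metalloprotease, *Mxi1* (-1.53), a MYC antagonist, *Tnfrsf4* (-1.33), the costimulator OX40, and *Hilpda* (-1.22), a hypoxia-induced lipid droplet protein, had ratios of -0.65, -0.34, -0.62 and -0.44 in matched cells. *Mt1*, a metallothionein, was at 578 and 241 CPM (-1.26, -1.54 to -0.98), while matched other tumor cells had 0.27. In control 2 cells held 131 of the 386 *Mt1* UMIs, and without the 2 top cells of each library the ratio was -0.94, no longer 2-fold. The differences between these ratios were not tested.

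**Figure D5:**
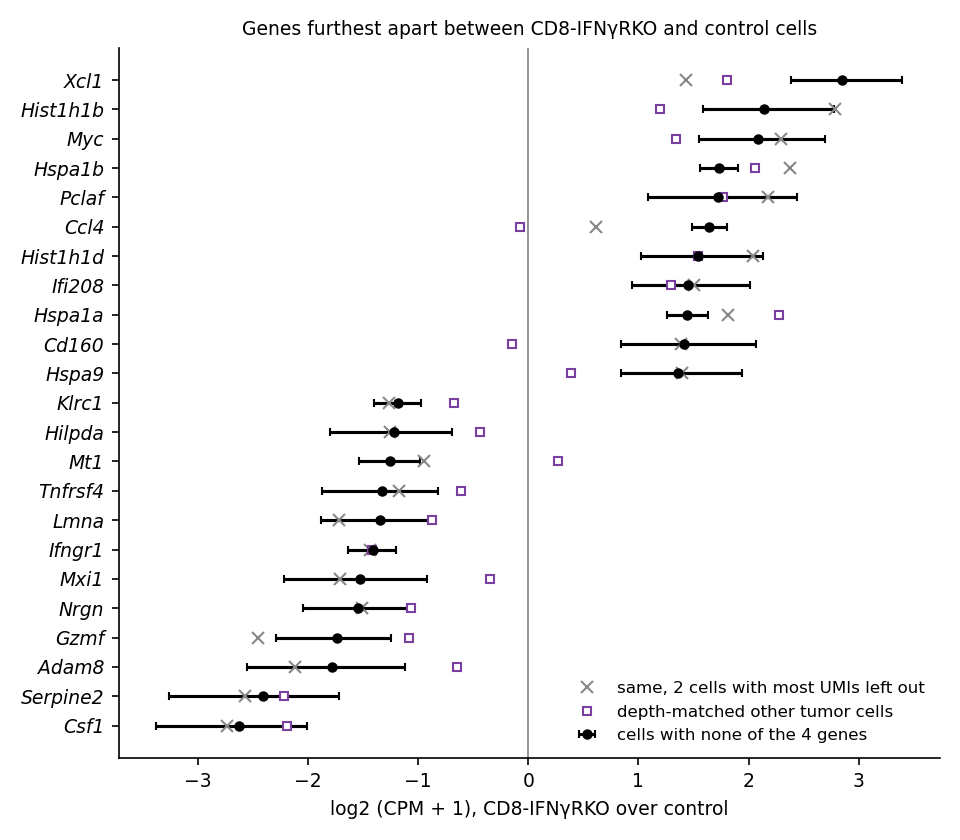
Log2 ratio of CPM (1 CPM added), CD8-IFNγRKO over control (x axis), of 11 of the 12 highest and of the 12 lowest genes (y axis) in cells without UMIs of the 4 genes, with 95% counting intervals, the same without the 2 cells with most UMIs of the gene in each library (crosses), and the ratio in depth-matched other tumor cells (open squares). *Ccl4*, *Cd160* and *Mt1* have a ratio on the other side of 0 in the other tumor cells, and *Xcl1* and *Ccl4* lie at 1.43 and 0.62 without 2 cells.

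Receptor-negative cells made up 19.9% of control and 36.6% of CD8-IFNγRKO 4-gene-negative cells, so the genotype ratios were read within each class. Of the 12 genes with the highest ratios, all 12 were higher in CD8-IFNγRKO in the receptor-negative and in the receptor-positive cells. Of the 12 with the lowest, 12 were lower among receptor-positive cells and 11 among receptor-negative cells, with *Lmna* as the exception. The genes were chosen for this difference, so the counts describe only how it was spread over the classes.

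Markers of other cell types were at low levels. Macrophage and dendritic cell genes summed to 59.9 CPM in control and 29.0 CPM in CD8-IFNγRKO 4-gene-negative cells, against 87.3 and 42.0 CPM in matched cells, with 5 and 10 of 12 genes at 0 UMIs and *Itgax* the most abundant. NK cell genes summed to 115 and 109 CPM against 195 and 155 CPM, with 4 of 8 genes at 0 in each library and *Klre1* on top. B cell genes summed to 40.4 and 88.5 CPM against 25.1 and 73.3 CPM, mostly *Ighm*, with 6 and 5 of 8 genes at 0. CD4 and regulatory T cell genes summed to 272 and 156 CPM against 347 and 228 CPM, led by *Icos*, γδ T cell genes to 2.99 and 12.9 CPM against 10.1 and 38.6 CPM, and melanoma genes to 1.497 and 4.83 CPM against 4.48 and 3.55 CPM, with 7 and 6 of 8 genes at 0. Their part in the results was not tested.

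Of 16 genes that IFNγ induces, 0 were 2-fold higher or lower between genotypes, near the 1.71% and 1.1% of all genes. Among the 16, 10 had a ratio above 0 and the median log2 ratio was 0.12, against -0.01 in matched other tumor cells. *Irf1*, a transcription factor that IFNγ induces, was at 401 CPM in control and 394 CPM in CD8-IFNγRKO. *Socs3*, a feedback inhibitor, was at 124 and 209 CPM. Exhaustion genes had a median of -0.56, with *Lag3*, *Havcr2* and *Bhlhe40* at least 2-fold lower and *Cd160* higher, against -0.47 in matched cells. Glycolysis genes had a median of -0.26 in the 4-gene-negative cells and 0.28 in matched other tumor cells. The list summed to 15592 CPM in control and 13107 CPM in CD8-IFNγRKO 4-gene-negative cells. Within the receptor classes the sums lay nearer, at 9765 and 9428 CPM in receptor-negative and 16836 and 15766 CPM in receptor-positive cells. Receptor-negative cells were a larger part in CD8-IFNγRKO (36.6% against 19.9%), and this mix was not separated from the median.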

How the data were processed

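UMI counts per gene and cell were deposited by the authors as filtered matrices, made per the file headers and methods with Cell Ranger 6.0.0 from 5′ libraries against mm10, with TCR contigs beside them. Nothing tied cells to mice, and doublets were not removed here. Counts were summed over cells to CPM, and ratios were taken on the log2(CPM + 1) scale, so changes of low genes are understated. Intervals were exact Poisson or Clopper-Pearson (95%). Genes were compared with the other tumor cells at 50 CPM or more and 20 expected UMIs, and between genotypes at 100 UMIs or more over both libraries. The 12 highest and 12 lowest genes were named, by the ratio nearer 0 in the comparison with the other tumor cells, with list genes in addition. Some of these genes are not reported here. The members and the 20 gene lists were chosen with earlier results of these data known. On simulated data for control cells (2785 genes), intervals covered 96.0% of 4-fold higher, 99.0% of 4-fold lower and 96.1% of unchanged genes. These counts were drawn as Poisson counts, as the intervals assume, without spread between cells. The coverage therefore checks the arithmetic only and does not extend to genes whose UMIs sat in few cells. Alternatives were depth, rule, offset, filter, matching and clone definition. Python 3.11.15, numpy 2.4.6, scipy 1.17.1 and pandas 2.3.3 were used.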

Additional observations from a re-analysis of the deposited data

Results flagged for a closer look

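In 15 of the 163 list and named genes compared (9.2%) the ratio of 4-gene-negative over matched other tumor cells had opposite signs in the 2 libraries, with both counting intervals on their own side of 0, as in 31 of all 2774 genes (1.12%). The difference between the genotypes was not tested, since each was 1 library.

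Of the 11 glycolysis genes compared 7 were among them, each higher in control and lower in CD8-IFNγRKO 4-gene-negative cells. The log2 ratios in control and CD8-IFNγRKO were 0.15 and -0.31 for *Gapdh*, 0.28 and -0.31 for *Eno1*, 0.31 and -0.43 for *Tpi1*, and 0.24 and -0.19 for *Gpi1*. They were 0.13 and -0.19 for *Ldha*, 0.19 and -0.32 for *Aldoa*, and 0.17 and -0.21 for *Pkm*. These enzymes all differed by less than 2-fold.

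Among effector genes, *Ifng* had ratios of -0.40 and 0.44, *Ccl4* of -0.98 and 0.74, *Cd160* of -0.76 and 0.81, and *Nr4a3*, an orphan nuclear receptor induced by TCR signals, of -0.43 and 0.75. *Mt1* had ratios of 0.34 and -1.18, *Ube2c*, a mitotic ubiquitin-conjugating enzyme, of 0.82 and -0.84, *Hmgb2* of 0.20 and -0.25, and *Rgs1* of 0.27 and -0.21. Without the 2 cells with most UMIs of the gene in each library, the signs were alike for 5 of the 15 genes. The ratios in control and CD8-IFNγRKO were then -1.16 and -0.46 for *Ccl4*, -0.62 and -0.62 for *Ifng*, -0.23 and -1.45 for *Mt1*, -0.18 and -1.32 for *Ube2c*, and -0.08 and -0.37 for *Hmgb2*.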

How the results depend on the processing

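The share of 4-gene-negative cells moved with depth and with the *Tcf7* criterion, the 1 criterion that was dropped in turn. It was 15.0% in control and 20.6% in CD8-IFNγRKO after thinning to 2000 UMIs, 0.470% and 0.468% at a minimum of 5000 UMIs, and 5.21% and 6.67% without the *Tcf7* criterion. Without that criterion 47 genes were 2-fold higher and 64 lower than in the other tumor cells, and 51.6% and 19.7% of cells shared a clone with other cells. Between genotypes 23 genes were then higher in CD8-IFNγRKO (9 among the original 31) and 51 lower (15 among the original 20), so more were lower than higher. With 5000 UMIs, 1054 genes could be compared with the other tumor cells, instead of 2774, and 0 were lower. The 1 gene higher was not *S1pr1*, although *S1pr1* still had log2 ratios of 1.18 in control and 1.54 in CD8-IFNγRKO. *Nabp1* stayed past 2-fold at -1.04 and -1.68, while *Gzmc* (-0.78) and *Spp1* (-0.89) were less than 2-fold lower in control. Between genotypes 415 genes could be compared. Of these, 14 were higher in CD8-IFNγRKO (3 among the original 31) and 19 lower (5 among the original 20). The *Hist1h1d* ratio of CD8-IFNγRKO over control turned from 1.54 to -0.55. Adding 10 CPM left 0 higher and 1 lower, and no filter gave 70 and 175, and 1654 and 1508 between genotypes. Unmatched other cells gave 55 and 43, and thinned cells 2 and 2, and 10 and 11 between genotypes. Added after seeing the data, leaving out other cells with *Tcf7* gave 11 higher genes, and leaving out barcodes found in any other library gave 2. Clones by beta chain alone gave shares of 78.3% and 57.0%, so the split of the control lead clone did not move them beyond their intervals. The share in the 10 largest control clones was 55.9% by beta chain alone when ranked by all cells. No paired analysis was possible because each genotype was 1 library and no test was made. The limits are the single library of pooled mice per genotype, few UMIs per cell, and intervals that cover counting error only.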

Other observations

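All 15 CD3 and proximal TCR signaling genes could be compared, and the median log2 ratio over matched cells was -0.09 in control against -0.08 in CD8-IFNγRKO. TCR-induced genes had medians of -0.05 and 0.04 over 11 genes, effector memory genes of -0.13 and -0.03 over 17, and tissue residency genes of -0.09 and -0.16 over 4. Heat shock and immediate early genes had a ratio above 0 in both libraries for 11 of 12, with medians of 0.26 and 0.35, beside 25.4% of all genes. Without the 2 cells with most UMIs of the gene, *Hspa1b* was at -0.07 in control and 0.25 in CD8-IFNγRKO. *Hspa1a* was then at 0.41 and -0.05, so neither kept a ratio above 0 in both libraries. Type I interferon genes had medians of 0.43 and -0.05 over 7 genes, proliferation genes of 0.23 and -0.16 over 8, and cytokine and chemokine genes of -0.43 and 0.46 over 6. In CD8-IFNγRKO few cells carried these last genes. Without the 2 cells with most UMIs of each, *Ccl4*, *Ifng* and *Xcl1* were at -0.46, -0.62 and -0.27 there. IFNγ response genes had medians of 0.04 and 0.11 over 17.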
